A study of Mus musculus with 6 samples.

Results

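The 10 genes described here are 6 receptors and 4 ligands of the tumour necrosis factor (TNF) superfamily, chosen by symbol from the 27179 genes counted in mouse group 2 innate lymphoid cells (ILC2s). The receptors were Tnfrsf9, Tnfrsf18, Tnfrsf4, Tnfrsf25, Tnfrsf1b and Tnfrsf8, and the ligands were Tnfsf14, Tnfsf11, Tnfsf4 and Tnfsf8. Each symbol matched 1 row of the count table. RNA came from ILC2s sorted through a Chat positive gate (3 libraries) or a Chat negative gate (3 libraries). Choline acetyltransferase, the product of Chat, makes acetylcholine. The sources used here do not give the genotype, age or treatment of the mice, the tissue, or the reporter or stain behind the gate. Since no label ties the 3 samples of a gate to different mice, the p-values cover the spread among these samples alone, and that spread may be technical.

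TNF superfamily ligands are mostly membrane proteins that act as trimers on receptors of neighbouring cells, and some are also released in soluble form. The receptors without a death domain recruit TRAF adaptors and switch on NF-kappaB, which supports the survival, division and cytokine output of lymphocytes. On ILC2s and T cells, receptors such as 4-1BB, GITR, OX40 and DR3 act as costimulators beside the main activating signal. A few receptors carry a death domain instead, and can pass on either survival or death signals.

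Depth ran from 37154269 to 50361306 counts per library. Chat stood at 188, 169 and 204 CPM in Chat positive libraries 1, 2 and 3 and at 16.5, 26.5 and 17.5 CPM in Chat negative libraries 1, 2 and 3, higher in the gate named for it. CPM are read counts divided by the library total, scaled by TMM factors (trimmed mean of M values), and multiplied by 1e6. The libraries numbered 2 stood apart from the others in both gates. Within a gate, the 4 pairs that held a number 2 library differed with a chi-square per degree of freedom of 124 to 176, against 29.9 to 30.5 for the 2 pairs of numbers 1 and 3. Same-numbered libraries of the gates deviated together, most clearly those of number 2. Values are therefore given by number, and a second fit treats the number as a block. For number 1 the pairing was not clear. Chat negative 1 correlated at 0.29 with Chat positive 1 and at 0.30 with Chat positive 3. All 10 ILC2 markers were detected, and none was called between the gates in edgeR without the block. In the blocked fit, 2 of them were called higher in Chat positive cells, where 0.216% of all genes were. These were Il5 (edgeR adjusted p = 0.0472) and Il1rl1 (edgeR adjusted p = 0.0419). Without robust dispersions, that fit called only 1 gene in all. An unadjusted p under 0.05 was reached by 6 of 10, against 16.5% of all genes. Of these 6 markers, Il7r lay lower in Chat positive cells for each number (blocked log2 change -0.22, SE 0.06). The others, Il5, Il1rl1, Areg, Il13 and Klrg1, lay higher. Gata3 also lay lower for each number. Areg and Il13 lay higher without overlap, where 4.53% of all genes tested lay higher and 3.61% lower without overlap. Areg stood at 309 to 371 CPM in Chat positive and 221 to 271 CPM in Chat negative libraries. Il13 stood at 377 to 464 CPM in Chat positive and 267 to 317 CPM in Chat negative libraries. The summed level of the 10 was 15631 to 24055 CPM in Chat positive and 14137 to 18900 CPM in Chat negative libraries. Of the markers of other cells, Cd8b1, Klra8, Cpa3, Ms4a2, Tpsb2 and Cdh5 had 0 counts in every library. Others were counted in every library. Xcr1 averaged 140 CPM in Chat positive and 131 CPM in Chat negative cells. In the same order, Cd79b averaged 79.7 and 70.6 CPM, Pecam1 72.8 and 63.5 CPM, and Epcam 46.5 and 68.1 CPM. Cd68 averaged 15.7 and 15.8 CPM, Nkg7 12.4 and 17.4 CPM, and Il22 2.92 and 3.10 CPM. Il22 had 86 to 176 counts in Chat positive libraries and 192, 8 and 198 counts in Chat negative libraries 1, 2 and 3. Another ILC3 marker, Il1r1, lay lower without overlap, with 4 to 19 counts in Chat positive and 29 to 57 counts in Chat negative libraries. For each number, Epcam and Nkg7 lay lower in Chat positive cells, and Xcr1 and Cd79b higher. The T cell and regulatory T cell markers, 9 of 10 detected, summed to 183 to 193 CPM in Chat positive and 184 to 201 CPM in Chat negative libraries, mostly from Lat and Cd3g. Among them, Cd6 lay higher without overlap, with 23 to 61 counts in Chat positive and 5 to 19 counts in Chat negative libraries, and Cd3d lower, with 36 to 47 counts in Chat positive and 44 to 87 counts in Chat negative libraries. Foxp3, the factor that defines regulatory T cells, stood at 1.20 to 2.21 CPM in Chat positive and 1.64 to 3.52 CPM in Chat negative libraries. The part of these marker differences in the members' values was not tested.

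None of the 10 members passed the threshold between the gates in the fit without the block, where 0.00771% of the 12967 genes tested did (edgeR's quasi-likelihood test, Benjamini-Hochberg adjusted p under 0.05). The only gene past it was Chat. The adjusted p was 1.00 for each member. With the block, 1 member, Tnfrsf9, was called higher in Chat positive cells, where 0.339% of all genes were called in either direction and 0.216% as higher. The same blocked fit did not call Chat itself (log2 change 3.24, SE 0.25, edgeR adjusted p = 0.0961). The one member whose libraries did not overlap between the gates was Tnfsf14, lower in Chat positive cells, as were 3.61% of all genes tested (4.53% lay higher without overlap, and 8.14% in either direction). DESeq2 called no member without the block, where it called 0.0309% of all genes in either direction and 0.0231% as higher. With the block it called 3 members, Tnfrsf9 as higher and Tnfrsf1b and Tnfsf14 as lower. It gave no adjusted p to Tnfrsf4, Tnfsf11, Tnfsf4 and Tnfsf8, so these could not be called. Of the 8693 genes it gave an adjusted p, it called 5.48% in either direction, 2.20% as higher and 3.28% as lower. Since RNA came from pools of cells, fewer cells of a type and less RNA per cell cannot be told apart.

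The upstream sequences of Tnfrsf9 and Tnfsf14 are shown because the blocked edgeR fit called Tnfrsf9 and because Tnfsf14 was the member without overlap between the gates. Each is the 250 bases before a RefSeq transcript start (GRCm38.p6, the same assembly as mm10), written 5′ to 3′ on the strand of the gene. Capitals mark matches to the AP-1 motif TGANTCA and to the NF-kappaB consensus, searched on both strands.
Tnfrsf9, chr4:150927749-150927998, plus strand: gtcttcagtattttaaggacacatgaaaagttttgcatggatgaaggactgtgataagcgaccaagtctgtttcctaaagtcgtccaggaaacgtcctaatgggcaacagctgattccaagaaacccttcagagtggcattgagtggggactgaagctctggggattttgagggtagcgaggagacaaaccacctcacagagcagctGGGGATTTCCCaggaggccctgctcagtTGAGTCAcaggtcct
Tnfsf14, chr17:57194182-57194431, minus strand: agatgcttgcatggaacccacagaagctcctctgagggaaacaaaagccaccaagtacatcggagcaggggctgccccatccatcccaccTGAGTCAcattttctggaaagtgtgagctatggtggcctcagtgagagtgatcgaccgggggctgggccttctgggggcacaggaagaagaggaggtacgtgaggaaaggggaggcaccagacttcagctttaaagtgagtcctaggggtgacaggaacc

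In the Tnfrsf9 window the first capitals are 2 overlapping NF-kappaB matches that begin 43 and 42 bases before the start, and the second are an AP-1 match that begins 15 bases before it. The Tnfsf14 window held an AP-1 match that begins 160 bases before the start and no NF-kappaB match. Of the 32851 such windows of all genes in the table, 6.75% held an AP-1 match and 3.90% an NF-kappaB match. Windows of 9 members were in the table. Tnfrsf8 was the other member with matches, 1 to each motif. A second Tnfrsf9 start further upstream had neither. A match is a description of the letters and not a binding site.

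**Figure D1:**
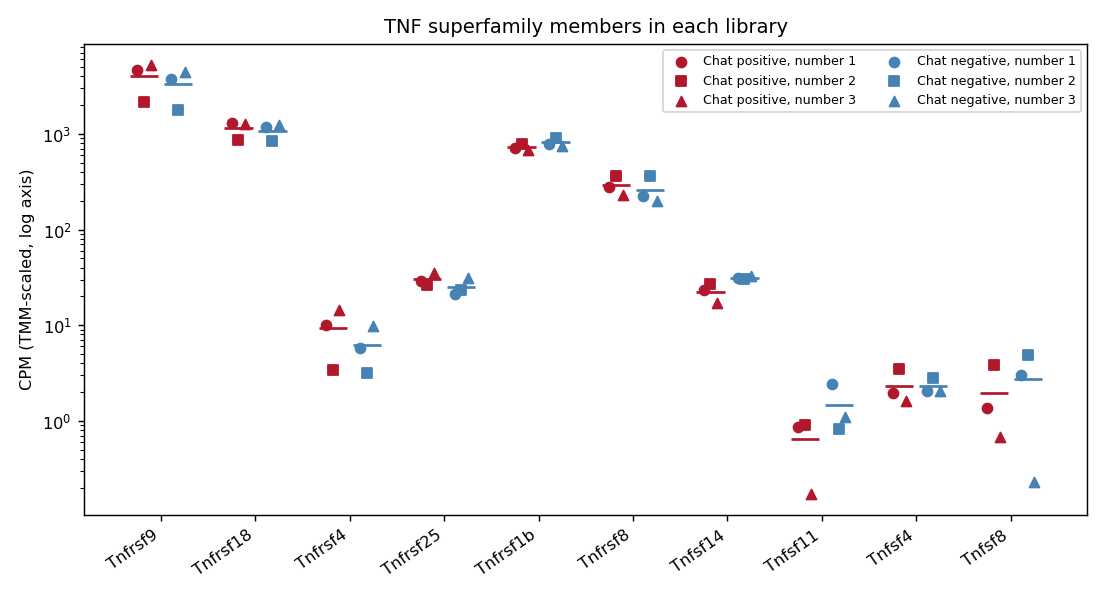
Level of each member in each library, in CPM on a log axis; Chat positive libraries are red and Chat negative libraries blue, the marker shape gives the replicate number and the short line the mean of 3. Tnfrsf9 and Tnfrsf18 were lowest in the libraries numbered 2 of both gates, and only the Tnfsf14 libraries separated by gate.

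Tnfrsf9 encodes 4-1BB, a costimulatory receptor induced on activated lymphocytes (Entrez 21942, mm10 chromosome 4, 150920155 to 150946104). It stood at 4664, 2166 and 5193 CPM in Chat positive libraries 1, 2 and 3, against 3766, 1760 and 4423 CPM in Chat negative libraries 1, 2 and 3. The gates overlapped, and the lowest library of each gate was number 2. Within each number, Chat positive was higher, by log2 ratios of 0.31, 0.30 and 0.23. The mean was 4007 ± 1617 CPM in Chat positive and 3316 ± 1387 CPM in Chat negative cells (SD, n = 3 each). Without the block the log2 change was 0.27 (SE 0.42, edgeR adjusted p = 1.00), and with it 0.28 (SE 0.05, edgeR adjusted p = 0.0472). The blocked call was not made without robust dispersions (edgeR adjusted p = 0.105) or in limma-voom (adjusted p = 0.0856), and was made in DESeq2 with the block (adjusted p = 8.8e-05). It was also lost without the libraries of number 1 (edgeR adjusted p = 0.484) or number 2 (0.133), and kept without those of number 3 (0.00366). Those fits called 0, 3 and 709 genes in all, in that order. In these 3 fits the log2 change was 0.26, 0.27 and 0.30. Without the block, leaving out Chat negative 2 turned the log2 change to -0.03. Camta1, on the opposite strand, overlaps the Tnfrsf9 locus but shares no exon base with it, and had 567 to 759 counts beside 76306 to 209017 for Tnfrsf9.

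Tnfrsf18 encodes GITR, another costimulatory receptor of this group (Entrez 21936, chromosome 4, 156026322 to 156028894). Its levels were 1308, 858 and 1280 CPM in Chat positive libraries 1, 2 and 3 and 1183, 834 and 1227 CPM in Chat negative libraries 1, 2 and 3. Number 2 was again the lowest in both gates, and the gates overlapped. The fit gave a log2 change of 0.09 (SE 0.21, edgeR adjusted p = 1.00). It was -0.02 without Chat positive 1, -0.01 without Chat positive 3 and -0.07 without Chat negative 2. An antisense gene, Gm16008, shares 414 exon bases with Tnfrsf18 and had 10 to 35 counts, against 36172 to 52976 for Tnfrsf18.

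Tnfrsf4 encodes OX40, the receptor of the Tnfsf4 ligand (Entrez 22163, chromosome 4, 156013595 to 156016613). Chat positive libraries 1, 2 and 3 held 9.97, 3.42 and 14.6 CPM, and Chat negative libraries 1, 2 and 3 held 5.72, 3.16 and 9.84 CPM. These came from 176 to 587 counts in Chat positive and 137 to 425 counts in Chat negative libraries. Chat positive was higher for each of the 3 numbers, with log2 ratios of 0.80, 0.11 and 0.57, although the gates overlapped. The fitted log2 change was 0.58 (SE 0.59, edgeR adjusted p = 1.00), and 0.51 (SE 0.17, edgeR adjusted p = 0.205) with the block. Single libraries moved the unblocked value widely, to 0.08 without Chat positive 3 and to 1.07 without Chat negative 3.

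Tnfrsf25 encodes DR3, a death domain receptor that costimulates ILC2s when it binds the TL1A ligand (Entrez 85030, chromosome 4, 152115528 to 152120119). It stood at 29.2, 26.6 and 35.4 CPM in Chat positive libraries 1, 2 and 3 and at 21.1, 23.6 and 30.9 CPM in Chat negative libraries 1, 2 and 3. Chat positive was the higher in each number, and the gates overlapped through Chat negative 3. A log2 change of 0.27 (SE 0.19, edgeR adjusted p = 1.00) was fitted, and 0.28 (SE 0.10, edgeR adjusted p = 0.217) with the block.

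Tnfrsf1b encodes TNFR2, the TNF receptor that has no death domain (Entrez 21938, chromosome 4, 145212368 to 145246870). It was the only receptor of the 6 that lay lower in Chat positive libraries, at 713, 785 and 671 CPM in libraries 1, 2 and 3, against 788, 910 and 742 CPM in Chat negative libraries 1, 2 and 3. Number 2 was the highest in both gates. Each number gave a negative log2 ratio, of -0.15, -0.21 and -0.15, and the gates overlapped. The log2 change was -0.17 (SE 0.12, edgeR adjusted p = 1.00), and -0.17 (SE 0.05, edgeR adjusted p = 0.146) with the block. DESeq2 with the block called it (adjusted p = 0.0380).

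Tnfrsf8 encodes CD30, a receptor of activated lymphocytes (Entrez 21941, chromosome 4, 145267132 to 145315164). Chat positive libraries 1, 2 and 3 stood at 277, 361 and 228 CPM, and Chat negative libraries 1, 2 and 3 at 223, 359 and 199.5 CPM. As for Tnfrsf1b, number 2 was the highest in both gates, and there the gates differed by a log2 ratio of only 0.01. The log2 change was 0.15 (SE 0.26, edgeR adjusted p = 1.00). It was -0.05 without Chat positive 2 and -0.01 without Chat negative 3.

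Among the ligands, Tnfsf14 encodes LIGHT, which binds the herpesvirus entry mediator and the lymphotoxin beta receptor (Entrez 50930, chromosome 17, 57189474 to 57194181). It stood at 23.2, 26.9 and 17.1 CPM in Chat positive libraries 1, 2 and 3 and at 31.2, 30.4 and 32.9 CPM in Chat negative libraries 1, 2 and 3. The highest Chat positive library lay below the lowest Chat negative one, and the log2 ratios were -0.43, -0.18 and -0.95 in numbers 1, 2 and 3. Chat positive libraries varied more among themselves (22.4 ± 4.98 CPM) than Chat negative ones (31.5 ± 1.27 CPM, SD, n = 3 each). The log2 change was -0.49 (SE 0.18), the smallest unadjusted p among the members (0.0311) and an adjusted p of 1.00 in edgeR. With the block it was -0.51 (SE 0.14, edgeR adjusted p = 0.153), and DESeq2 with the block called it (adjusted p = 0.0303). Leaving out Chat positive 3 gave -0.35, and leaving out both libraries of number 3 gave -0.30.

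Both known receptors of LIGHT were low in these cells. Tnfrsf14, the herpesvirus entry mediator, stood at 0.351, 0.214 and 0.522 CPM in Chat positive libraries 1, 2 and 3 and at 0.756, 0.553 and 0.556 CPM in Chat negative libraries 1, 2 and 3. The gates did not overlap, on 11 to 21 counts in Chat positive and 24 to 32 counts in Chat negative libraries. Of all genes tested, 3.61% lay lower without overlap. The log2 change of Tnfrsf14 was -0.78 (SE 0.49, edgeR adjusted p = 1.00). Ltbr, the lymphotoxin beta receptor, averaged 2.69 ± 1.12 CPM in Chat positive and 3.09 ± 1.65 CPM in Chat negative cells (SD, n = 3 each). The 3 genes tested with a mean of at least 10 CPM whose pattern over the 6 libraries was most like that of Tnfsf14 were Slc29a3, Spsb1 and N4bp2. They lay a mean absolute difference of 0.09, 0.10 and 0.10 from it in centred log2 CPM, among 8375 genes compared.

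Tnfsf11 encodes RANKL, the osteoclast factor that is also made by lymphocytes (Entrez 21943, chromosome 14, 78277446 to 78308043). It was sparse, with 32, 47 and 7 counts (0.865, 0.913 and 0.174 CPM) in Chat positive libraries 1, 2 and 3 and 104, 36 and 47 counts (2.46, 0.830 and 1.09 CPM) in Chat negative libraries 1, 2 and 3. Chat positive lay lower in numbers 1 and 3 and slightly higher in number 2. Its log2 change was -1.16 (SE 0.70, edgeR adjusted p = 1.00). It was -0.55 without Chat negative 1, -0.73 without Chat positive 3 and -1.79 without both libraries of number 2. Its receptor gene Tnfrsf11a stood at 19.1 ± 2.63 CPM in Chat positive and 22.6 ± 6.92 CPM in Chat negative cells, and the decoy receptor gene Tnfrsf11b at 1.61 ± 0.276 and 1.03 ± 0.695 CPM in Chat positive and Chat negative cells (SD, n = 3 each).

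Tnfsf4 encodes the OX40 ligand, which ILC2s can show to T cells (Entrez 22164, chromosome 1, 161395438 to 161418206). The Chat positive libraries 1, 2 and 3 held 1.95, 3.46 and 1.61 CPM, and the Chat negative libraries 1, 2 and 3 held 2.06, 2.84 and 2.06 CPM. Number 2 was highest in both gates. Its log2 change was 0.02 (SE 0.37, edgeR adjusted p = 1.00), with a sign that changed with the setting.

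Tnfsf8 encodes the CD30 ligand (Entrez 21949, chromosome 4, 63831202 to 63861508). It varied more between numbers than any other member, at 1.35, 3.85 and 0.671 CPM in Chat positive libraries 1, 2 and 3 and 3.00, 4.93 and 0.232 CPM in Chat negative libraries 1, 2 and 3. Number 2 was highest and number 3 lowest in both gates. The means of the numbers spanned 3.14 on the log2 scale. The log2 change between the gates was -0.47 (SE 1.00, edgeR adjusted p = 1.00), and 0.29 without Chat negative 2.

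**Figure D2:**
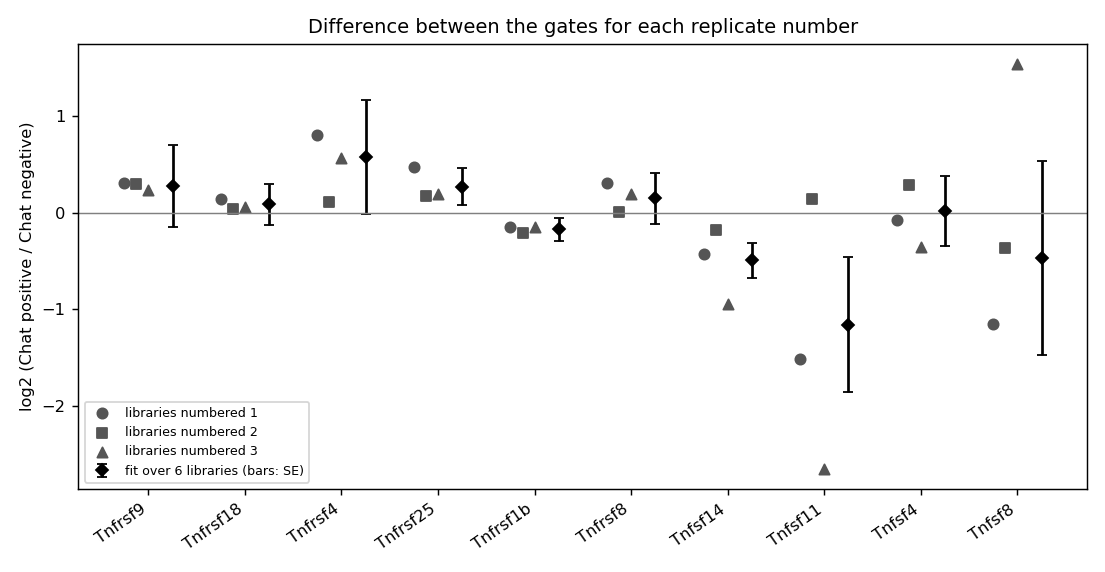
Log2 ratio of Chat positive to Chat negative CPM for each member, by replicate number (grey shapes), beside the log2 change of the fit over 6 libraries without the block (black diamonds, bars are the SE). The 3 ratios of Tnfrsf9 lie between 0.23 and 0.31, while those of Tnfsf11, Tnfsf4 and Tnfsf8 fall on both sides of 0.

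As a group, the members split by direction. The log2 change was above 0 for 6 of 10, against 50.9% of all genes tested, and the median was 0.05, against 0.00 over all genes. All 3 numbers gave the same direction for 7 members, 5 higher (Tnfrsf9, Tnfrsf18, Tnfrsf4, Tnfrsf25 and Tnfrsf8) and 2 lower (Tnfrsf1b and Tnfsf14) in Chat positive cells. The same held for 39.6% of all genes. An unadjusted p under 0.05 was reached by 1 member without the block, against 2.43% of all genes, and by 6 members with it, against 16.5% of all genes. These 6 were Tnfrsf9, Tnfrsf4, Tnfrsf25, Tnfrsf1b, Tnfrsf8 and Tnfsf14.

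For most members the replicate number held a larger share of the spread than the gate did, as for most genes tested. It held 61.6% of the spread of log2 values for Tnfrsf1b, 60.9% for Tnfrsf25 and 86.9% for Tnfsf4. The gate held 37.1% for Tnfrsf1b and 31.8% for Tnfrsf25. For Tnfrsf4, Tnfsf8, Tnfrsf8, Tnfrsf9 and Tnfrsf18 it held 87.9% to 97.0%. For Tnfsf11 the number held 39.8% and the gate 35.9%. The number accounts for 2 and the gate for 1 of the 5 degrees of freedom of this spread, so the shares are not on equal terms. For 9 members the number held more than the gate, as it did for 80.8% of all genes. The exception was Tnfsf14, with 63.4% of its spread between the gates and 12.2% between the numbers. Tnfrsf9, Tnfrsf18 and Tnfrsf4 were lowest in number 2 in both gates, as were 29.6% of all genes. Tnfrsf1b, Tnfrsf8, Tnfsf4 and Tnfsf8 were highest there in both gates, as were 31.2% of all genes. Markers moved with the number as well. Mcpt8, a basophil protease gene, had 1282 and 1337 counts in Chat positive 2 and Chat negative 2, and 4585 to 8760 counts in the other 4 libraries. The mast cell and basophil list had 4 of 7 genes detected, with Cpa3, Ms4a2 and Tpsb2 at 0. It summed to 301 to 318 CPM in Chat positive and 278 to 356 CPM in Chat negative libraries, mostly from Kit and Mcpt8. Cma1 of this list had 4 to 7 counts in Chat positive and 0 to 1 counts in Chat negative libraries. Of the ILC2 markers, 6 of 10 were lowest in number 2 in both gates. Their part in the members' levels was not tested. Across the numbers, Tnfrsf9 spanned 1.30, Tnfrsf4 1.84 and Tnfrsf18 0.57 on the log2 scale. The sources used here do not say what the number stands for.

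**Figure D3:**
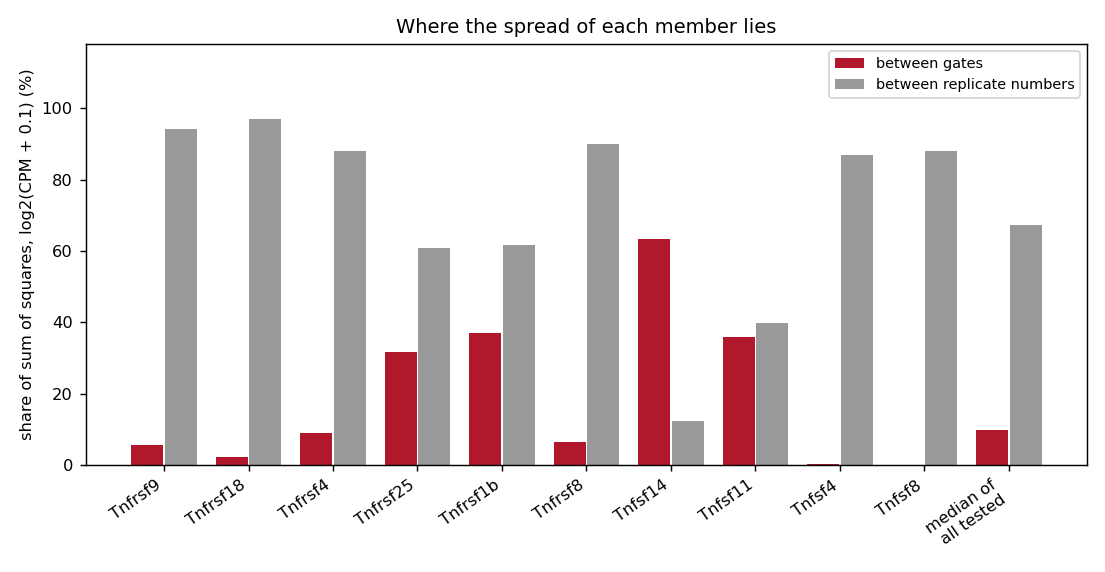
Share of the sum of squares of log2(CPM + 0.1) over 6 libraries that lay between the gates (red) and between the replicate numbers (grey) for each member, with the median of all genes tested at the right. Tnfsf14 is the one member with more spread between the gates, at 63.4%.

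Levels were compared between genes as CPM per kilobase of the longest transcript. Tnfrsf9 came first of the members, at 1895 ± 764 in Chat positive and 1568 ± 656 in Chat negative cells (SD, n = 3 each), and ranked 16 of the 12091 tested genes with a known length. Tnfrsf18 followed at 966 ± 212 in Chat positive and 909 ± 181 in Chat negative cells, and ranked 29. In each library Tnfrsf9 lay above Tnfrsf18, although their ranges over libraries overlapped. Tnfrsf1b (189 ± 15.1 in Chat positive and 213 ± 22.7 in Chat negative cells) and Tnfrsf8 (84.6 ± 19.7 in Chat positive and 76.4 ± 25.2 in Chat negative cells) came next, each separate from its neighbours in every library. Tnfrsf25, Tnfsf14 and Tnfrsf4 formed a middle group, with means over all libraries of 16.7, 14.6 and 7.14, in which neighbours overlapped. Tnfsf4, Tnfsf8 and Tnfsf11 were lowest, at 1.26, 0.615 and 0.472, and also overlapped. Thus 4 receptors stood above every ligand of the list in these cells, on a scale that depends on the annotated transcript length.

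Among the 46 superfamily genes listed (28 receptors and 18 ligands), 34 were tested and 21 averaged under 1 CPM per kilobase. Ltb, a subunit of the membrane lymphotoxin heterotrimer, and Tnfsf9, the 4-1BB ligand, were the most abundant ligands, with means of 59.4 and 50.1 CPM per kilobase. Tnfsf9 stood at 73.7, 55.1 and 74.6 CPM in Chat positive libraries 1, 2 and 3 and at 66.6, 51.7 and 66.1 CPM in Chat negative libraries 1, 2 and 3, a log2 change of 0.14 (SE 0.17, edgeR adjusted p = 1.00). Its receptor Tnfrsf9 and Tnfsf9 itself were thus both counted in each library, and both were lowest in number 2. The genes of the DR3 and GITR ligands were at or near 0. Tnfsf15, which encodes the DR3 ligand TL1A, had 0 counts in all 6 libraries, which allows up to 0.0807 CPM in the smallest library from counting error alone. Tnfsf18, the GITR ligand gene, had at most 6 counts in a library. Tnf and Lta, whose products bind TNFR2, stood at 4.87 ± 2.69 and 19.9 ± 12.5 CPM in Chat positive cells and at 5.01 ± 2.04 and 24.8 ± 10.3 CPM in Chat negative cells (SD, n = 3 each).

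**Figure D4:**
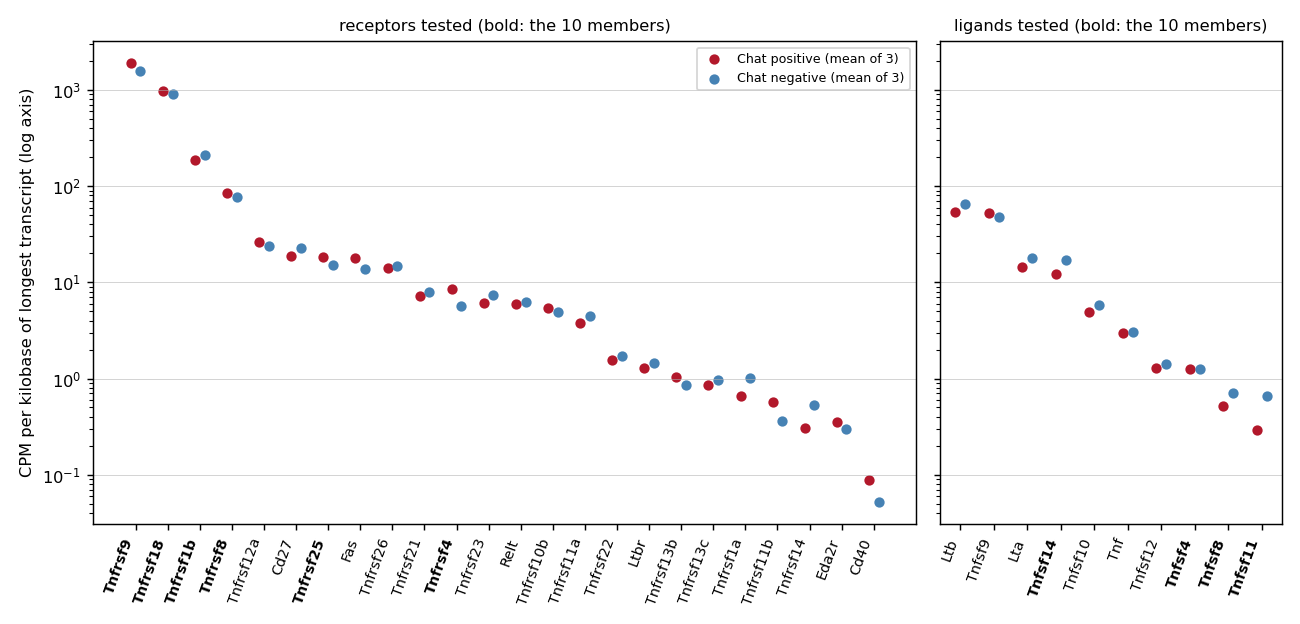
Mean level of each tested TNF superfamily receptor (left) and ligand (right), in CPM per kilobase of the longest transcript on a log axis, with Chat positive in red and Chat negative in blue. Tnfrsf9, Tnfrsf18, Tnfrsf1b and Tnfrsf8 stand above the other genes, and the gates lie close together for most genes.

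The other receptor genes gave no call in edgeR with or without the block, over 18 tested of 22 listed. Fas, a death receptor that limits lymphocyte numbers, stood at 27.5, 31.4 and 28.2 CPM in Chat positive libraries 1, 2 and 3 and at 21.4, 25.1 and 21.2 CPM in Chat negative libraries 1, 2 and 3. Its gates did not overlap, as for 8.14% of all genes tested, and the log2 change was 0.36 (SE 0.13, edgeR adjusted p = 1.00). Tnfrsf1a, the death domain TNF receptor, stood at 1.43 ± 0.678 CPM in Chat positive and 2.17 ± 0.974 CPM in Chat negative cells. Cd27, a costimulatory receptor, stood at 29.5 ± 14.0 CPM in Chat positive and 35.3 ± 17.5 CPM in Chat negative cells (SD, n = 3 each). Tnfrsf26, a member of the mouse decoy receptor cluster with Tnfrsf22 and Tnfrsf23, stood at 43.9 ± 23.0 and 45.6 ± 25.9 CPM in Chat positive and Chat negative cells. Reads of these related genes may have been split between copies. Of the 22, Ngfr, Tnfrsf17 and Edar had 0 counts in all libraries. Among the other ligands, 6 of 14 were tested, edgeR called none with or without the block, and 5 lay below 0, with Tnfsf10 (TRAIL) at 24.3 ± 2.81 CPM in Chat positive and 29.0 ± 4.32 CPM in Chat negative cells.

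The adaptors that the receptors recruit were tested in full, at 17 of 17 TRAF and cIAP genes, and edgeR called none with or without the block. Their median log2 change was 0.07, with 12 above 0. Tank, a TRAF-binding regulator of NF-kappaB signalling, stood at 25.9, 29.2 and 26.5 CPM in Chat positive libraries 1, 2 and 3, against 19.5, 20.2 and 20.5 CPM in Chat negative libraries 1, 2 and 3. Its gates did not overlap (log2 change 0.44, SE 0.12, edgeR adjusted p = 1.00). Traf6 and Traf4 lay the other way without overlap, where 8.14% of all genes tested did not overlap in either direction. Traf6 stood at 89.0 ± 8.52 CPM in Chat positive and 109 ± 5.75 CPM in Chat negative cells, and Traf4 at 36.8 ± 2.11 CPM in Chat positive and 41.3 ± 2.52 CPM in Chat negative cells (SD, n = 3 each). Traf2, which binds most of the receptors described here, stood at 109 ± 10.2 and 93.3 ± 8.16 CPM, and Birc3, a cIAP ubiquitin ligase, at 191 ± 28.0 and 169 ± 14.5 CPM, in Chat positive and Chat negative cells (SD, n = 3 each). Traf7 stood at 144 ± 3.06 CPM in Chat positive and 138 ± 2.80 CPM in Chat negative cells.

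In the death domain arm, 3 of the 13 genes tested lay above 0, the median was -0.06 on the log2 scale, and edgeR called none with or without the block. The abundant ones were Ripk3, a kinase of necroptosis, at 364 ± 45.1 CPM in Chat positive and 355 ± 63.6 CPM in Chat negative cells, and Casp8, the initiator caspase, at 348 ± 15.1 and 335 ± 13.0 CPM in Chat positive and Chat negative cells (SD, n = 3 each). Madd, Daxx and Cflar had log2 changes of -0.23, -0.17 and -0.19. In the NF-kappaB list, 21 of 21 were tested, the median was -0.04 and edgeR called none without the block. With it, edgeR called 1 higher, the feedback inhibitor Tnfaip3, where 0.216% of all genes were called higher. The blocked fit called only 1 gene in all without robust dispersions, as did blocked limma-voom. Nfkbia, which encodes the inhibitor IkappaB-alpha, stood at 444, 339 and 381 CPM in Chat positive libraries 1, 2 and 3 and at 309, 311 and 279 CPM in Chat negative libraries 1, 2 and 3. Its gates did not overlap (log2 change 0.37, SE 0.12, edgeR adjusted p = 1.00). Ikbkb, an IkappaB kinase gene, and Tab3, an adaptor of the kinase TAK1, lay lower without overlap. Of all genes tested, 8.14% did not overlap in either direction. Ikbkb stood at 109 ± 1.76 CPM in Chat positive and 116 ± 3.25 CPM in Chat negative cells, and Tab3 at 17.7 ± 1.03 CPM in Chat positive and 20.3 ± 1.41 CPM in Chat negative cells (SD, n = 3 each). Rela and Chuk had log2 changes of -0.21 and 0.21, and the deubiquitinase Cyld -0.01.

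The shedding list, which holds proteases that release TNF superfamily proteins from the membrane and their regulators, had 6 of 6 genes tested, none called by edgeR with or without the block, and a median of -0.06. Adam8 stood at 1077 ± 56.3 CPM in Chat positive and 1111 ± 82.2 CPM in Chat negative cells, and Adam10 at 235 ± 23.6 and 252 ± 10.1 CPM in Chat positive and Chat negative cells (SD, n = 3 each). The inhibitor gene Timp3 stood at 6.43, 7.77 and 10.1 CPM in Chat positive libraries 1, 2 and 3 and at 6.31, 3.53 and 6.11 CPM in Chat negative libraries 1, 2 and 3. Its gates did not overlap, as for 8.14% of all genes tested (log2 change 0.61, SE 0.29, edgeR adjusted p = 1.00). Rhbdf2 and Rhbdf1, which carry the protease Adam17 to the surface, had log2 changes of -0.21 and 0.35.

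**Figure D5:**
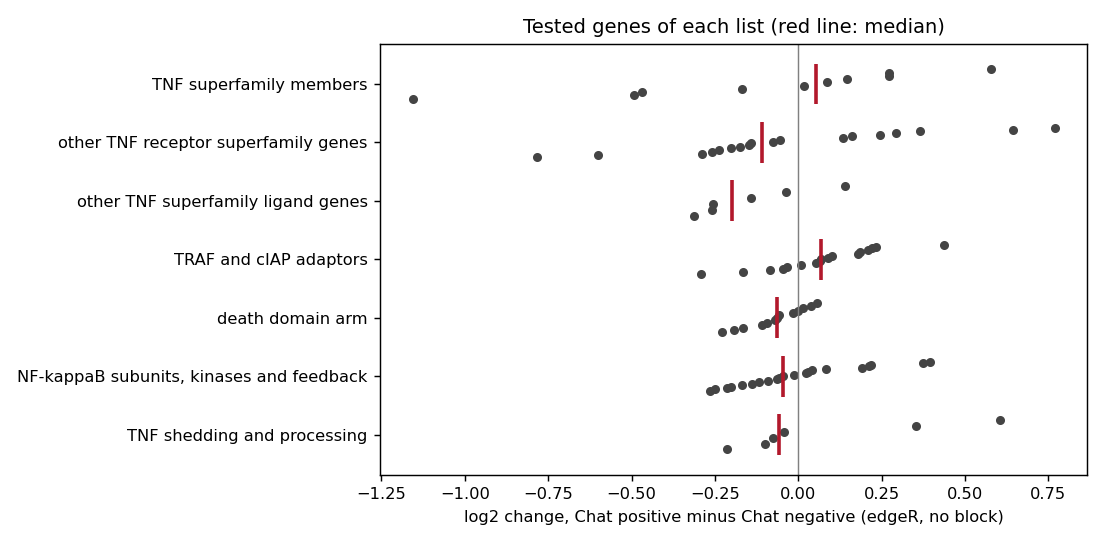
Log2 change, Chat positive minus Chat negative, of each tested gene in the TNF superfamily and its signalling lists (edgeR without the block); each point is a gene and the red line the list's median. The medians lie between -0.20 (other ligands) and 0.07 (TRAF and cIAP adaptors).

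The members also share positions in the genome. All 6 receptor genes and Tnfsf8 lie on chromosome 4. Tnfrsf4 and Tnfrsf18 are neighbours on the plus strand, with 9551 bases between them, yet stood far apart in level, at 7.14 and 938 CPM per kilobase. Tnfrsf1b and Tnfrsf8 lie 20266 bases apart on the minus strand. They had log2 changes of -0.17 and 0.15, and were both highest in number 2. Tnfsf14 lies 39714 bases from Cd70 and 81734 bases from Tnfsf9 on chromosome 17. Cd70, the CD27 ligand gene, had at most 16 counts in a library, while Tnfsf14 and Tnfsf9 were well covered and had log2 changes of opposite sign, at -0.49 and 0.14.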

How the data were processed

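The authors deposited raw read counts per Entrez gene ID, with no normalisation, since the values are whole and library sums differ. Tools named in the submitters' processing notes were STAR 2.3.0 and CASAVA 1.8.2, and the build was mm10. Per the labels' protocols, cDNA was made with a SMARTer kit for small amounts of RNA. The sources used here do not give the counting program or its strand setting, so reads of genes on opposite strands cannot be told apart.

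Symbols and coordinates came from the RefSeq table of GRCm38.p6, which matched 25275 of 27179 IDs. The other 1904 held at most 0.222% of a library's counts and stayed in. Gene length was taken from the longest transcript in GENCODE vM21. Libraries held 37154269 to 50361306 counts. A count of 0 allows up to 3 counts, and such limits cover counting error only.

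edgeR 4.0.16 in R 4.3.3 kept 12967 genes (filterByExpr), scaled with TMM and tested each gene with the two-sided quasi-likelihood F-test (robust dispersions), adjusted over all genes by Benjamini-Hochberg at 5%. A log2 change is the Chat positive value minus the Chat negative one, with the SE that the F statistic implies. DESeq2 1.42.0 and limma 3.58.1 (voom) were alternatives. Within gates, no libraries agreed within sampling noise, so all 6 counted. Same-numbered libraries deviated from their gate means together, with correlations over genes of 0.29 (number 1), 0.67 (number 2) and 0.43 (number 3), so the number was used as a block in a second fit. This pairing comes from the data and not from a label. Chat positive 3 also correlated with Chat negative 1 at 0.30, and Chat positive 1 with Chat negative 3 at 0.20. Deviations from a mean of 3 libraries cancel out, so a shared shift of number 2 can alone make correlations among numbers 1 and 3 positive.

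The members and gene lists were chosen with earlier results of these data known, so no count over them is independent support. Text names all members, the binding partners, from each list the 3 genes with the smallest p and the 2 most abundant, and 3 genes with a pattern like that of the member with the smallest p. Other genes without overlap or at 0 were named after their values were seen.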

Additional observations from a re-analysis of the deposited data

How the results depend on the processing

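Of 257 log2 changes of members under the alternatives, 229 kept their direction and their side of the threshold, 7 became calls and 21 changed sign. A value without an adjusted p was taken as not called. The 229 thus include Tnfrsf4, Tnfsf11 and Tnfsf8 in blocked DESeq2, which gave them none. Tnfrsf4, Tnfrsf25, Tnfrsf1b, Tnfsf14 and Tnfsf11 changed sign under none of them. Against 1 gene and 0 members called without the block in edgeR (315 genes and 1 member at an unadjusted p under 0.05), the replicate block gave 44 genes and 1 member, and 476 genes and 3 members in DESeq2 with the block, while blocked limma-voom and the blocked fit without robust dispersions gave 1 gene and 0 members. DESeq2 without the block called 4 genes. Leaving out libraries without the block gave 0 to 2 genes and 0 members, with 0 genes whenever a library numbered 1 or 3 was missing. Chosen after seeing the data were the blocked fit without each number (0 genes without number 1, 3 without number 2 and 709 without number 3, with 0 to 1 member), with library-size scaling (25 genes, 1 member) and with RLE scaling (46 genes, 1 member). The log2 change of Tnfsf4 was -0.039 with the block with or without robust dispersions, -0.050 in blocked DESeq2, -0.0091 in limma-voom, -0.022 in the block with library-size scaling and -0.047 with RLE scaling, and Tnfsf8 was 0.08 in limma-voom. When libraries were left out, log2 changes without the block ran from -0.031 to 0.57 for Tnfrsf9, -0.069 to 0.26 for Tnfrsf18, -0.048 to 0.45 for Tnfrsf8, -0.38 to 0.21 for Tnfsf4 and -1.43 to 0.29 for Tnfsf8, and from 0.084 to 1.07 for Tnfrsf4, 0.13 to 0.44 for Tnfrsf25, -0.23 to -0.082 for Tnfrsf1b, -0.68 to -0.30 for Tnfsf14 and -1.79 to -0.55 for Tnfsf11. With the block they ran from -0.22 to 0.11 for Tnfsf4 (-0.027 without number 1) and from -0.72 to 0.32 for Tnfsf8. The cause of these shifts was not tested. Among the members, the lowest counts in a library were 7 for Tnfsf11 and 10 for Tnfsf8, where counting error is largest relative to the level.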
